A study of Homo sapiens with 9 samples.

Results

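The genes described here encode the proteins of the cytosolic ribosome. Members were the protein-coding genes whose symbol was RPL or RPS followed by a number and at most a pair of further letters, together with RPLP0, RPLP1, RPLP2 and RPSA. Pseudogenes and the RPS6K kinases were left out. The rule found 82 genes among 60308 gene IDs, of which 50 belonged to the large and 32 to the small subunit. A filter on low counts kept 79 of them (48 large, 31 small) among 18435 genes tested. Among the 3 that did not pass were RPL3L and RPL10L. No value of these data entered the rule.

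Total RNA was sequenced in 9 samples of MCF10A, a human breast epithelial line that is immortalised. All 9 carried plasmids for ectopic MYC (pBABE-hygro-MYC) and for PI3KH1047R, a PI3K with an activating substitution (pMN-IRES-GFP-PI3KH1047R), and each carried a hairpin plasmid of the tetracycline-inducible pLKO-tetON-puro kind. The hairpins were shG9a_1 and shG9a_4, against the histone methyltransferase G9a (gene EHMT2), and shSCR, a scrambled control, with 3 replicates each. Doxycycline at 2 µg/mL was given for 72 hours in every group, so the controls shared the drug, the oncogenes and the vector backbone. MCF10A cells without the oncogenes or without doxycycline were not analysed here. RNA was taken from bulk cells. The comparisons ask which mRNAs differ when G9a is knocked down in cells with ectopic MYC.

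Each library held between 53065611 and 76958831 reads counted in genes. EHMT2 was at 17.6, 22.6 and 21.0 CPM in shG9a_1, 32.1, 27.2 and 33.5 CPM in shG9a_4 and 51.1, 45.2 and 45.4 CPM in shSCR, below the control libraries with both hairpins. Its log2 fold change was −1.21 for shG9a_1 (adjusted p = 0.00766 in edgeR's quasi-likelihood test) and −0.61 for shG9a_4 (adjusted p = 0.259 in edgeR). The level was higher in all 3 shG9a_4 than in all 3 shG9a_1 libraries, at a log2 fold change of 0.60 (adjusted p = 1.00 in edgeR). Of 10 markers of breast epithelial lines all 10 passed the filter. Their summed level, mostly KRT5 and KRT6A, was 5537 to 7523 CPM in shG9a_1, 4706 to 6712 CPM in shG9a_4 and 4634 to 6405 CPM in shSCR. In shG9a_1, 7 of them had a log2 fold change above 0 (50.2% of all genes). The 3 below 0 were EPCAM (−0.60), CDH1 (−0.07) and TP63 (−0.05). In shG9a_4 all 10 lay above 0 (50.8% of all genes). KRT14, a basal keratin, was at 54.5, 40.4 and 85.6 CPM in shG9a_1, 61.2, 35.5 and 66.1 CPM in shG9a_4 and 32.6, 19.8 and 47.9 CPM in shSCR, with an adjusted p of 0.00576 in shG9a_1 and 0.0148 in shG9a_4 in edgeR with the replicate block, and it was not called without the block. Among markers of other cell types, 4 of 7 fibroblast, 3 of 5 endothelial, 5 of 6 immune and 5 of 5 erythroid genes stayed under 1 CPM in every library. The summed fibroblast markers, mostly DCN, reached 197 to 422 CPM in shG9a_1, 140.1 to 417 CPM in shG9a_4 and 159 to 337 CPM in shSCR. Their part in the ribosomal protein values was not tested.

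A ribosome is built from ribosomal RNA and one copy of most ribosomal proteins, so cells make the proteins in matched amounts and degrade unassembled ones. Most of their mRNAs begin with a C followed by a run of pyrimidines, the terminal oligopyrimidine or TOP motif, through which mTORC1 and LARP1 control their translation. MYC is known to raise the output of ribosomal RNA, ribosomal proteins and assembly factors, and unassembled RPL5 and RPL11 bind MDM2, the ubiquitin ligase of p53.

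The start sites of these genes show what the members have in common beyond their names. A RefSeq promoter entry (GRCh38.p14) was found for 65 of the 82 members. Of these, 55 had 1 annotated start and 10 had 2 or 3. An unbroken run of at least 8 C or T letters covered the annotated first base in 39 of the 55 members with 1 start, or 70.9%, against 4.79% of 22114 genes with 1 start. Their start base was C in 80.0% of members and in 15.2% of all such genes. Of the 10 members with several starts, 7 had such a run at one of them and 0 at every one. The 8 windows printed here belong to members with 1 start that the results turn on and show a start with and without such a run. Each holds 30 bases, 5′ to 3′ on the gene's own strand, with 15 before the annotated start. Capitals mark the pyrimidine run over the start base.
RPL26: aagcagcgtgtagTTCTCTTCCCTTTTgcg
RPL36A: tttgcctcgcggTTTCTTTCTTTCCgcgcc
RPL36AL: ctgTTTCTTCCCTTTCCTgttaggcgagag
RPS6: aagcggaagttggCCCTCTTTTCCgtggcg
RPS12: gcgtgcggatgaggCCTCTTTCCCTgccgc
RPS29: ccccgagcgcgcagCTggcagcggtggttg
RPS27: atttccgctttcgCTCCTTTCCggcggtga
RPS27L: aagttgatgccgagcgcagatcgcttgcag
They lie at chr17:8383179-8383208 on the minus strand (RPL26), chrX:101390996-101391025 plus (RPL36A), chr14:49620612-49620641 minus (RPL36AL), chr9:19380222-19380251 minus (RPS6), chr6:132814554-132814583 plus (RPS12), chr14:49598696-49598725 minus (RPS29), chr1:153990747-153990776 plus (RPS27) and chr15:63157463-63157492 minus (RPS27L). RPL26, RPL36A, RPL36AL, RPS6, RPS12 and RPS27 start inside a run of 14, 13, 15, 11, 11 and 9 pyrimidines. RPS29 has 2 pyrimidines there and RPS27L, the paralog of RPS27, starts on a purine. In the promoters, from 250 bases before to 50 after the start, CACGTG, the core of the site that MYC and MAX bind, was found on either strand, at any annotated start, in 6.15% of members and 8.77% of all genes with an entry. CCGGAAG, a core of ETS-family sites, was found on either strand in 35.4% of members and 12.2% of all genes, and AAGATGG, a core of YY1 sites, in 12.3% and 7.11%. The motifs were searched as exact letters on both strands, and the end of CCGGAAG can overlap the start of AAGATGG. A match is a property of the letters and not a measured binding site.

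Ribosomal protein genes were among the most highly expressed genes of these cells. The 79 members tested had a median level of 611 CPM (counts scaled to library size and TMM factor, mean over 9 libraries), against 9.46 CPM over all genes tested, and 18 of the 100 highest genes were members. A level of 100 CPM or more was reached by 72 members, 6 lay between 10 and 100 CPM, and 1, RPL39L, lay below 10 CPM. Per kilobase of coding sequence the median was 1246 CPM, from 351 at the 10th to 2159 at the 90th percentile of members. This length leaves out untranslated sequence, which raises the value of genes with a short reading frame. These are counted reads, and several members at the low end share much of their sequence with other genes, among them RPL36A, RPL17 and RPL26; how far this lowers their values was not tested.

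The highest level per kilobase of coding sequence was that of RPL41 at 4440.4 CPM, but its reading frame of 75 bases is the shortest of all members, which raises a value per coding length. RPL37A (3166), RPS27 (3150.4), RPS24 (3030.2), RPS27A (2446) and RPS12 (2400.3) followed. RPS27A is made as a fusion with ubiquitin, and RPS24 is one of the genes mutated in Diamond-Blackfan anaemia, an inherited failure of red cell production. The lowest were RPL39L (6.85), RPS10 (21.8), RPL17 (24.8), RPL36A (40.5), RPL26 (194) and RPS16 (195), all in CPM per kilobase.

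In count files of this layout, reads with several matching places and reads ambiguous between overlapping genes are both left out of the gene counts. Some members share their sequence with other genes. In GENCODE 29 transcripts, RPL36A, RPS10 and RPL17 each share sequence with a read-through gene that runs across them, over 92.6%, 90.7% and 100% of the 75-base windows of their coding sequence. Reads in such an overlap can fall in the ambiguous class, so the counts kept for these genes need not give their mRNA levels. The part of shared sequence in the low counts was not tested. Across members, a median of 25.4% of windows occurred in other genes. That share was 0 in 15 members and above 50% in 29 of them. RPL3L, a form of striated muscle, reached at most 0.145 CPM in any library, and RPL10L, a form of testis, at most 0.0390 CPM.

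**Figure D1:**
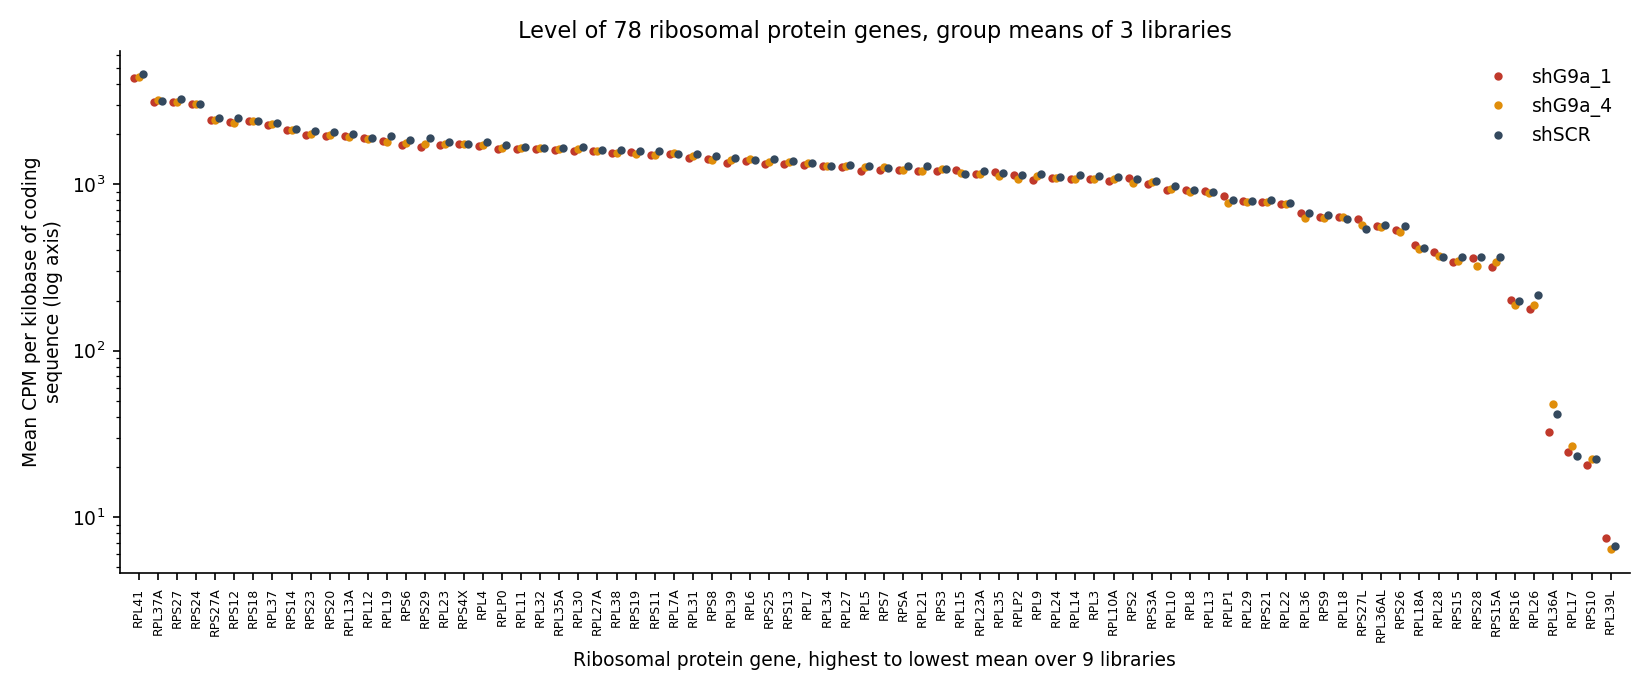
Mean CPM per kilobase of coding sequence (log axis) of 78 of the 79 ribosomal protein genes tested, ordered from highest to lowest, with 1 point for each group mean of 3 libraries. The group means lie close together for nearly every gene, while levels run from 4440 for RPL41 to 6.85 for RPL39L.

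Together the members took 5.01, 5.02 and 4.86% of the reads in genes in the shG9a_1 libraries, 5.17, 5.03 and 4.87% in shG9a_4 and 5.21, 5.32 and 5.04% in shSCR. All 3 shG9a_1 libraries lay below all 3 control libraries, and the shG9a_4 libraries overlapped them. The means were 4.96 ± 0.0875% in shG9a_1, 5.02 ± 0.150% in shG9a_4 and 5.19 ± 0.138% in shSCR (SD, n = 3 each). The difference in mean share was −0.23 percentage points in shG9a_1 and −0.17 in shG9a_4. Without shG9a_4 replicate 3 the difference in shG9a_4 was −0.0969 percentage points, and without shSCR replicate 2 it was −0.110. No test was made on a share summed over the members. In bulk RNA, fewer transcripts in every cell and fewer cells that hold them cannot be told apart, and a share does not give the amount of RNA per cell.

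In every group replicate 3 had the lowest share. Compared within replicate numbers, which were taken to pair the libraries, the share was lower in shG9a_1 than in shSCR in 3 of 3 pairs. It was also lower in shG9a_4 than in shSCR in 3 of 3 pairs. Large and small subunits kept a nearly fixed proportion: the ratio of their reads was 1.46 to 1.49 in all 9 libraries. Reads counted on ribosomal protein pseudogenes amounted to 0.0416 to 0.0530% of reads in genes. Reads of mitochondrially encoded genes ran from 0.537 to 0.887%, highest in shG9a_4 replicate 3, which also had the lowest share of ribosomal protein reads in its group.

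**Figure D2:**
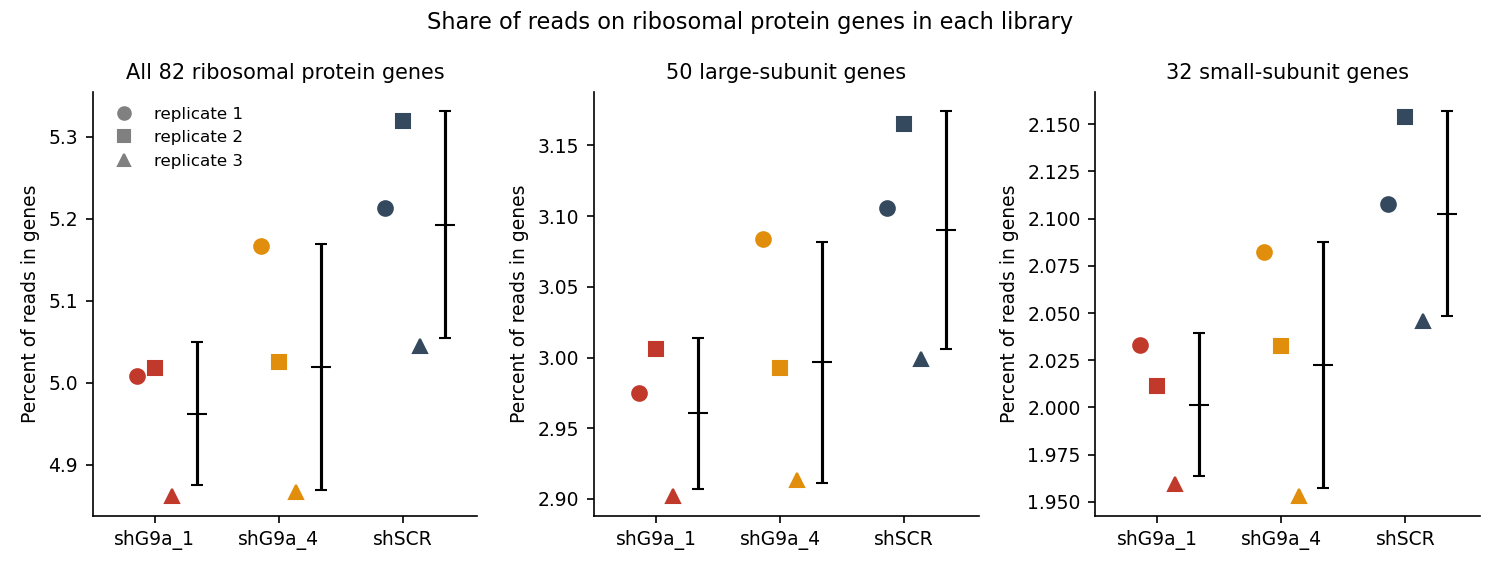
Percent of reads in genes that fell on all 82 ribosomal protein genes (left), the 50 large-subunit genes (middle) and the 32 small-subunit genes (right) in each library, with the group mean and SD (black, n = 3). The axes do not start at 0. The 3 shG9a_1 libraries sit between 4.86 and 5.02%, below the control libraries at 5.04 to 5.32%, and the shG9a_4 libraries overlap the control.

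No ribosomal protein gene passed the threshold with either hairpin. At an adjusted p of 0.05 in edgeR's quasi-likelihood test, 0 of 79 members were called in shG9a_1 against shSCR, where 0.038% of all genes tested were called, and 0 of 79 in shG9a_4 against shSCR, where 0.0271% were. DESeq2 and the fit with the replicate number as a block also called 0 members in both, with 0.432% and 0.776% of all genes called in shG9a_1 and 0.146% and 0.0759% in shG9a_4. A likelihood ratio test called 0 members in both, with 0.228% and 0.0922% of all genes called. With no filter 0 of 81 members were called in both, with 0.805% and 0.137% of all genes called. The lowest adjusted p of a member in edgeR was 0.605 in shG9a_1 and 1.00 in shG9a_4. At an unadjusted p under 0.05, edgeR found 4 members lower in shG9a_1 (5.06% of members, against 3.15% of all genes), 0 higher (4.34% of all genes), and 0 in either direction in shG9a_4, where 0.971% of all genes were lower and 1.4% higher.

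The fold changes of most members were small. The median log2 fold change over members was −0.043 in shG9a_1, against 0.00086 over all genes tested, and −0.043 in shG9a_4, against 0.0021 over all genes. In shG9a_1, 61 of 79 members had a log2 fold change below 0 (77.2%, against 49.8% of all genes) and 18 above it (50.2% of all genes), and in shG9a_4 65 of 79 (82.3%, against 49.2% of all genes), with 14 above it (50.8% of all genes). Both comparisons share the shSCR libraries, and the members of a library are not independent of each other. Values stayed within 0.1 of 0 on the log2 scale in 69 members in shG9a_1 and 71 in shG9a_4, against 44.3% and 56.9% of all genes. All genes were not matched to the members for level (median 9.46 CPM against 611 CPM). The 95% interval lay within 0.3 of 0 in 64 and 66 members of the 79. The median SE in shG9a_1 was 0.073 for members and 0.154 for all genes, but RPL39L (0.22), RPS28 (0.21), RPS16 (0.19), RPL17 (0.19), RPLP1 (0.18) and RPL36 (0.16) had larger SEs than that all-gene median. The member medians are smaller in size than the SE of 0.073, so a count of 0 called does not show that no member changed.

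The size of the median depended on single libraries. Without shG9a_4 replicate 3 the median in shG9a_4 was −0.00047, with 40 of 79 members below 0, and without shSCR replicate 2 the median in shG9a_1 was −0.023. In single libraries, the median deviation of the members from their mean over 9 libraries ran from −0.081 (shG9a_4 replicate 3) to 0.061 (shSCR replicate 2). Small-subunit genes had medians of −0.053 in shG9a_1 and −0.059 in shG9a_4, and large-subunit genes −0.032 and −0.029. Members with a pyrimidine run of at least 8 letters over any annotated start had medians of −0.041 and −0.047 (46 genes), and those with an entry but no such run −0.030 and −0.024 (18 genes). Members with no window in other genes had medians of −0.013 and −0.038 (13 genes), and those with over 50% of windows in other genes −0.062 and −0.037 (28 genes). Differences between these subsets were not tested.

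**Figure D3:**
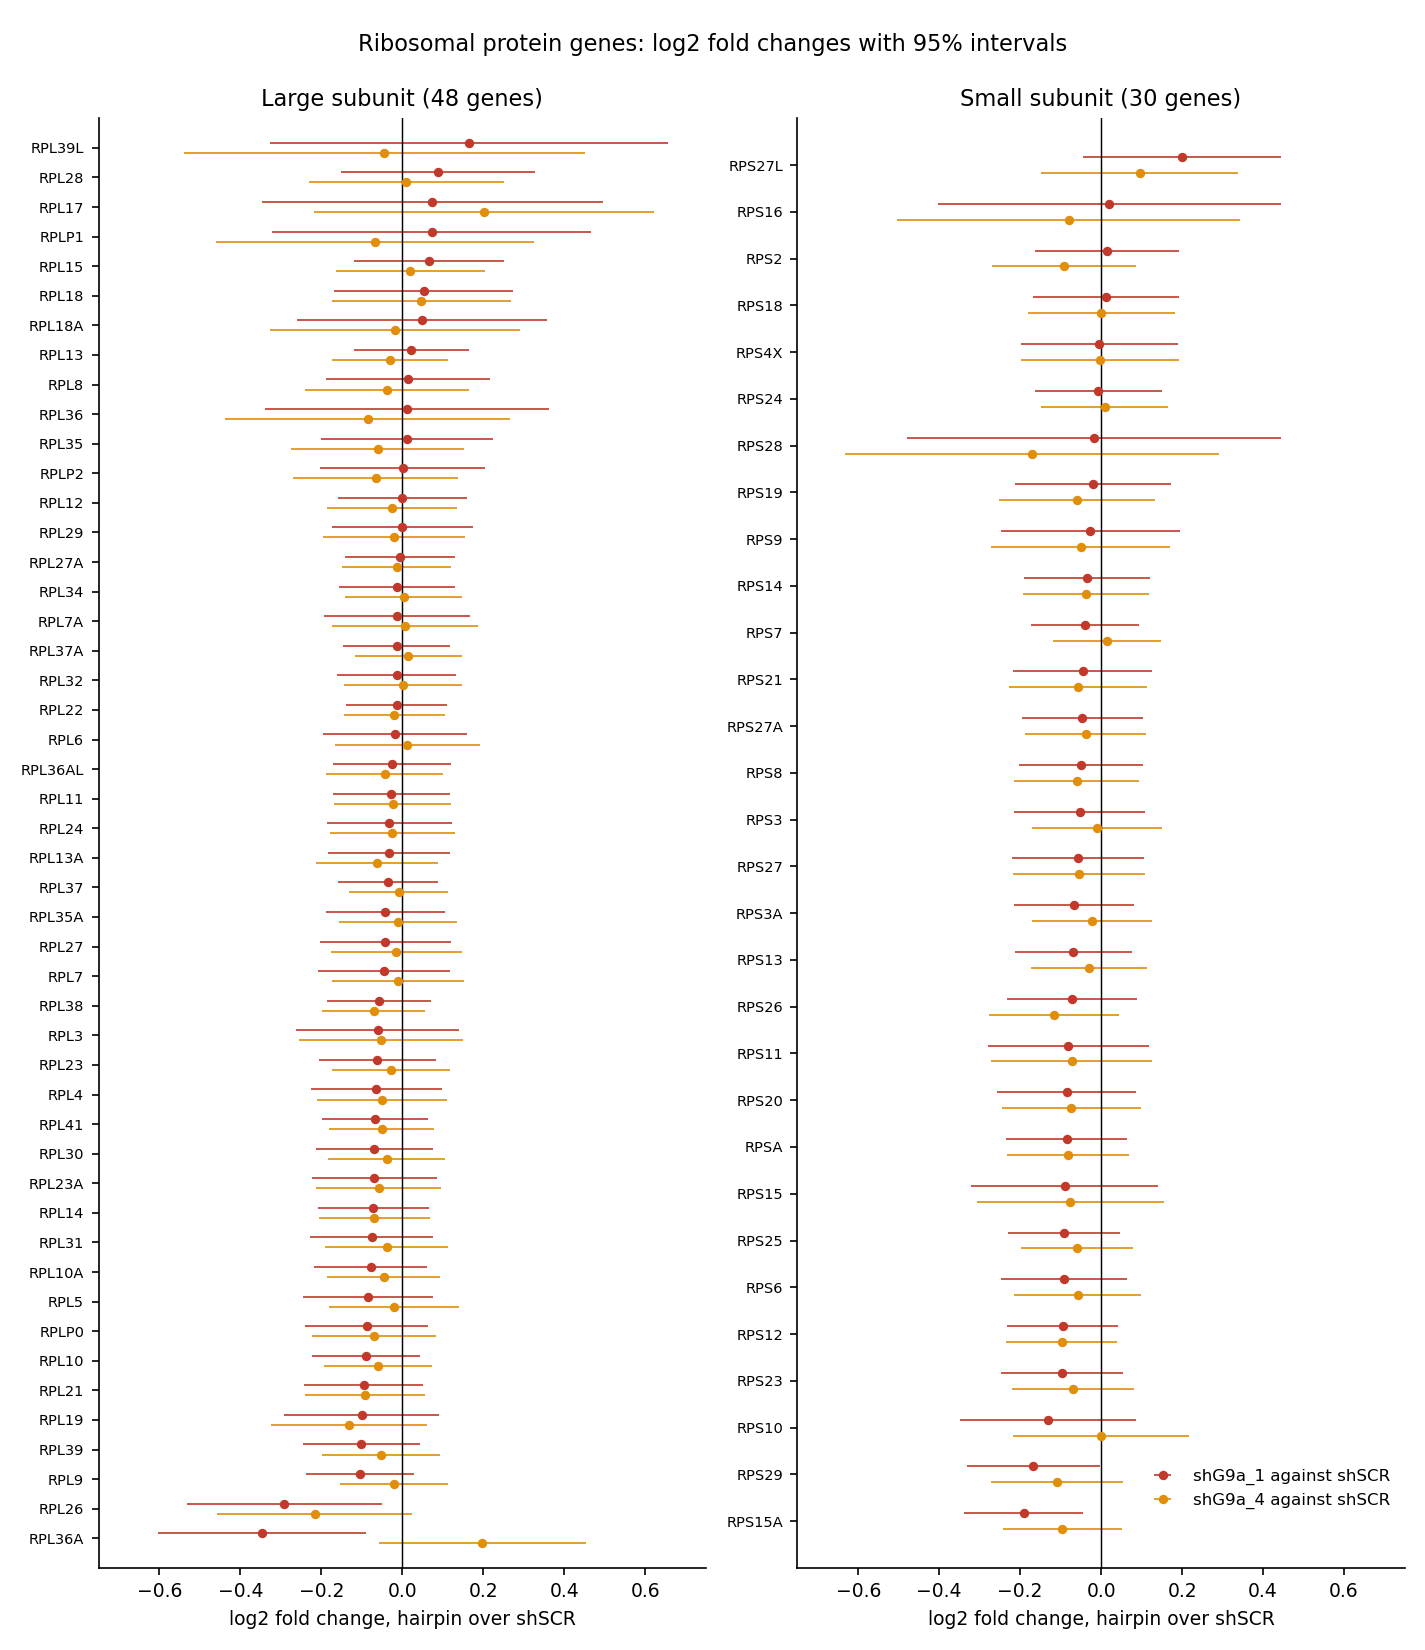
Log2 fold change of 78 of the 79 tested ribosomal protein genes in shG9a_1 and shG9a_4 over shSCR, with 95% intervals from the edgeR fit, large subunit left (48 genes) and small subunit right (30 genes). Most intervals span 0, and RPL36A, RPL26, RPS15A and RPS29 are the 4 whose shG9a_1 interval does not.

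Among small-subunit members the lowest value in shG9a_1 was that of RPS15A, a protein of the body of the subunit. It was at 127, 116 and 131 CPM in shG9a_1, 131, 127 and 141 CPM in shG9a_4 and 138, 142 and 147 CPM in shSCR. Every shG9a_1 library lay below every shSCR library, and shG9a_4 overlapped the control. The log2 fold change was −0.19 in shG9a_1 (SE 0.07, unadjusted p = 0.0156, adjusted p = 0.611 in edgeR) and −0.10 in shG9a_4 (SE 0.07). Over the alternative fits in edgeR, DESeq2 and voom, the adjusted p of RPS15A in shG9a_1 ranged from 0.0599 to 0.9995.

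RPS29, a small zinc-binding protein of the head of the subunit and a Diamond-Blackfan gene, was at 296, 259 and 291 CPM in shG9a_1, 299.7, 281 and 301 CPM in shG9a_4 and 309, 300.01 and 341 CPM in shSCR. The shG9a_1 libraries lay below the control libraries, by a narrow margin, and shG9a_4 overlapped them. Its log2 fold change was −0.17 in shG9a_1 (SE 0.07, unadjusted p = 0.0455, adjusted p = 0.658 in edgeR) and −0.11 in shG9a_4 (SE 0.07). Over the alternative fits in edgeR, DESeq2 and voom, the adjusted p of RPS29 in shG9a_1 ranged from 0.104 to 0.9995. RPS12, which sits at the beak of the head, was at 963, 886 and 941 CPM in shG9a_1, 954, 933 and 897 CPM in shG9a_4 and 987, 1021 and 972 CPM in shSCR. It lay below the control without overlap with both hairpins, at log2 fold changes of −0.09 in shG9a_1 (SE 0.06) and −0.10 in shG9a_4 (SE 0.06).

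RPS26, at the channel where mRNA leaves the subunit, was at 194, 168 and 189 CPM in shG9a_1, 186, 164 and 185 CPM in shG9a_4 and 192, 193 and 194 CPM in shSCR. The shG9a_4 libraries lay below the shSCR libraries and the shG9a_1 libraries overlapped them. The log2 fold changes were −0.07 in shG9a_1 (SE 0.07) and −0.12 in shG9a_4 (SE 0.07). Its coding windows recur to 100% in other genes. RPS6, the substrate of the S6 kinases downstream of mTORC1, was at 1351, 1249 and 1268 CPM in shG9a_1, 1355, 1389 and 1216 CPM in shG9a_4 and 1391, 1401 and 1331 CPM in shSCR, with log2 fold changes of −0.09 in shG9a_1 (SE 0.07) and −0.06 in shG9a_4 (SE 0.07). RPSA, also known as the laminin receptor, was at 1140.1, 1019 and 1069.9 CPM in shG9a_1, 1123, 1098 and 1015 CPM in shG9a_4 and 1161, 1135 and 1130.0 CPM in shSCR, with log2 fold changes of −0.09 in shG9a_1 (SE 0.07) and −0.08 in shG9a_4 (SE 0.07). RPSA lay below the control without overlap in shG9a_4, and RPS6 overlapped it in both hairpins.

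Other small-subunit members lay nearer to 0. RPS3, at the channel where mRNA enters, had log2 fold changes of −0.05 in shG9a_1 (SE 0.07) and −0.01 in shG9a_4 (SE 0.07). RPS4X, encoded on the X chromosome, was at 1489, 1354 and 1279 CPM in shG9a_1, 1420.4, 1481 and 1225 CPM in shG9a_4 and 1383, 1443 and 1308 CPM in shSCR, and its log2 fold changes were −0.004 in shG9a_1 (SE 0.09) and −0.002 in shG9a_4 (SE 0.09). RPS14, whose loss of a copy causes anaemia in a myelodysplastic syndrome, had −0.04 in shG9a_1 (SE 0.07) and −0.04 in shG9a_4 (SE 0.07). RPS19, the gene most often mutated in Diamond-Blackfan anaemia, had −0.02 in shG9a_1 (SE 0.09) and −0.06 in shG9a_4 (SE 0.09). RPS24 had −0.01 in shG9a_1 (SE 0.07) and 0.01 in shG9a_4 (SE 0.07), and RPS27A had −0.05 in shG9a_1 (SE 0.07) and −0.04 in shG9a_4 (SE 0.07). These 6 genes overlapped the control in both hairpins.

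RPS10, a protein of the head and a Diamond-Blackfan gene, was at 10.4, 10.0 and 10.0 CPM in shG9a_1, 11.1, 10.1 and 12.1 CPM in shG9a_4 and 11.2, 10.8 and 11.3 CPM in shSCR, with the shG9a_1 libraries below the control and log2 fold changes of −0.13 in shG9a_1 (SE 0.10) and −0.0002 in shG9a_4 (SE 0.10). It is the member with 90.7% of its windows in a read-through gene.

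RPS28 and RPS16 spread more widely among the shG9a_4 than among the shSCR libraries. RPS28, near the exit site of mRNA, was at 60.9, 85.1 and 77.1 CPM in shG9a_1, 78.4, 41.3 and 81.1 CPM in shG9a_4 and 74.4, 76.9 and 74.5 CPM in shSCR. Replicate 2 of shG9a_4 was the lowest of the 9 libraries and the groups overlapped, with log2 fold changes of −0.02 in shG9a_1 (SE 0.21) and −0.17 in shG9a_4 (SE 0.21). RPS16, whose tail reaches the decoding site, was at 79.9, 99.98 and 83.7 CPM in shG9a_1, 70.8, 61.0 and 114 CPM in shG9a_4 and 91.8, 90.8 and 77.3 CPM in shSCR, with log2 fold changes of 0.02 in shG9a_1 (SE 0.19) and −0.08 in shG9a_4 (SE 0.19).

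Among large-subunit members RPL36A and RPL26 had the lowest values in shG9a_1. RPL26, near the mouth of the exit tunnel and also known to bind the mRNA of p53, was at 78.5, 70.5 and 82.4 CPM in shG9a_1, 78.9, 71.8 and 93.0 CPM in shG9a_4 and 83.0, 96.1 and 104 CPM in shSCR. The shG9a_1 libraries lay below all control libraries by a narrow margin, and shG9a_4 overlapped them. Its log2 fold change was −0.29 in shG9a_1 (SE 0.11, interval −0.53 to −0.05, adjusted p = 0.62 in edgeR and 0.118 with the replicate block) and −0.22 in shG9a_4 (SE 0.11, interval −0.46 to 0.02). RPL26L1, its close paralog outside the rule, had −0.11 in shG9a_1 (SE 0.07) and −0.09 in shG9a_4 (SE 0.07), and 76.5% of the coding windows of RPL26 recur in other genes.

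RPL36A, a protein of the large subunit encoded on the X chromosome, lay on opposite sides of the control with the hairpins. It was at 10.4, 11.8 and 8.80 CPM in shG9a_1, 14.01, 15.3 and 15.95 CPM in shG9a_4 and 13.4, 12.6 and 13.4 CPM in shSCR. All shG9a_1 libraries were below and all shG9a_4 libraries above the control libraries. The log2 fold change was −0.35 in shG9a_1 (SE 0.12, adjusted p = 0.605 in edgeR) and 0.20 in shG9a_4 (SE 0.12, adjusted p = 1.00). In shG9a_4 against shG9a_1 it was 0.54 (SE 0.12, interval 0.29 to 0.80, unadjusted p = 0.000727, adjusted p = 1.00 in edgeR). With no filter the adjusted p of that difference was 0.0290 in edgeR, and with the replicate block it was 0.262. All its coding windows recur in other genes, 7 of them in total, and 92.6% recur in the read-through gene.

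Other large-subunit genes differed less. RPL9 was at 632, 589.5 and 618 CPM in shG9a_1, 659.6, 669 and 619 CPM in shG9a_4 and 655, 656 and 665 CPM in shSCR, all shG9a_1 libraries below the control, with log2 fold changes of −0.10 in shG9a_1 (SE 0.06) and −0.02 in shG9a_4 (SE 0.06). RPL10, which joins the subunit last, was at 606, 568 and 596 CPM in shG9a_1, 627, 581 and 599 CPM in shG9a_4 and 639.5, 617 and 627 CPM in shSCR, again with shG9a_1 below the control, and had −0.09 in shG9a_1 (SE 0.06) and −0.06 in shG9a_4 (SE 0.06). RPL19, of a bridge between the subunits, overlapped the control and had −0.10 in shG9a_1 (SE 0.09) and −0.13 in shG9a_4 (SE 0.09). RPL39, a very small protein in the wall of the exit tunnel, had −0.10 in shG9a_1 (SE 0.07) and −0.05 in shG9a_4 (SE 0.07). RPL21 and RPL14 overlapped the control in shG9a_1 and lay below it in shG9a_4, at log2 fold changes of −0.09 and −0.07 there.

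At the other end were RPL28, RPL17, RPL15 and RPL18. RPL28 had log2 fold changes of 0.09 in shG9a_1 (SE 0.11) and 0.01 in shG9a_4 (SE 0.11), RPL15 0.07 in shG9a_1 (SE 0.08) and 0.02 in shG9a_4 (SE 0.08), and RPL18 0.05 in shG9a_1 (SE 0.10) and 0.05 in shG9a_4 (SE 0.10). RPL17 was at 11.8, 14.7 and 13.996 CPM in shG9a_1, 15.2, 11.04 and 18.0 CPM in shG9a_4 and 14.3, 9.87 and 14.3 CPM in shSCR, with 0.07 in shG9a_1 (SE 0.19) and 0.20 in shG9a_4 (SE 0.19). None of the 4 stood apart from the control without overlap. RPL3, next to the centre where peptide bonds form, had −0.06 in shG9a_1 (SE 0.09) and −0.05 in shG9a_4 (SE 0.09); RPL13A, known also for a role in silencing inflammatory mRNAs, had −0.03 in shG9a_1 (SE 0.07) and −0.06 in shG9a_4 (SE 0.07); and RPL22, known for its role in lymphocytes, had −0.01 in shG9a_1 (SE 0.06) and −0.02 in shG9a_4 (SE 0.06). RPL37A and RPL41, both among the highest per kilobase, had −0.01 in shG9a_1 (SE 0.06) and 0.02 in shG9a_4 (SE 0.06), and −0.07 in shG9a_1 (SE 0.06) and −0.05 in shG9a_4 (SE 0.06).

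Counting members that stood apart, 9 were lower in shG9a_1 than in shSCR without overlap (11.4%, against 7.54% of all genes) and 0 were higher (7.15% of all genes). In shG9a_4, 6 were lower (7.59%, against 3.18% of all genes) and 1, RPL36A, was higher (3.25% of all genes). The 9 were RPL9, RPL10, RPL26, RPL36A, RPS10, RPS12, RPS15A, RPS23 and RPS29, and the 6 were RPL14, RPL21, RPL39, RPS12, RPS26 and RPSA.

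**Figure D4:**
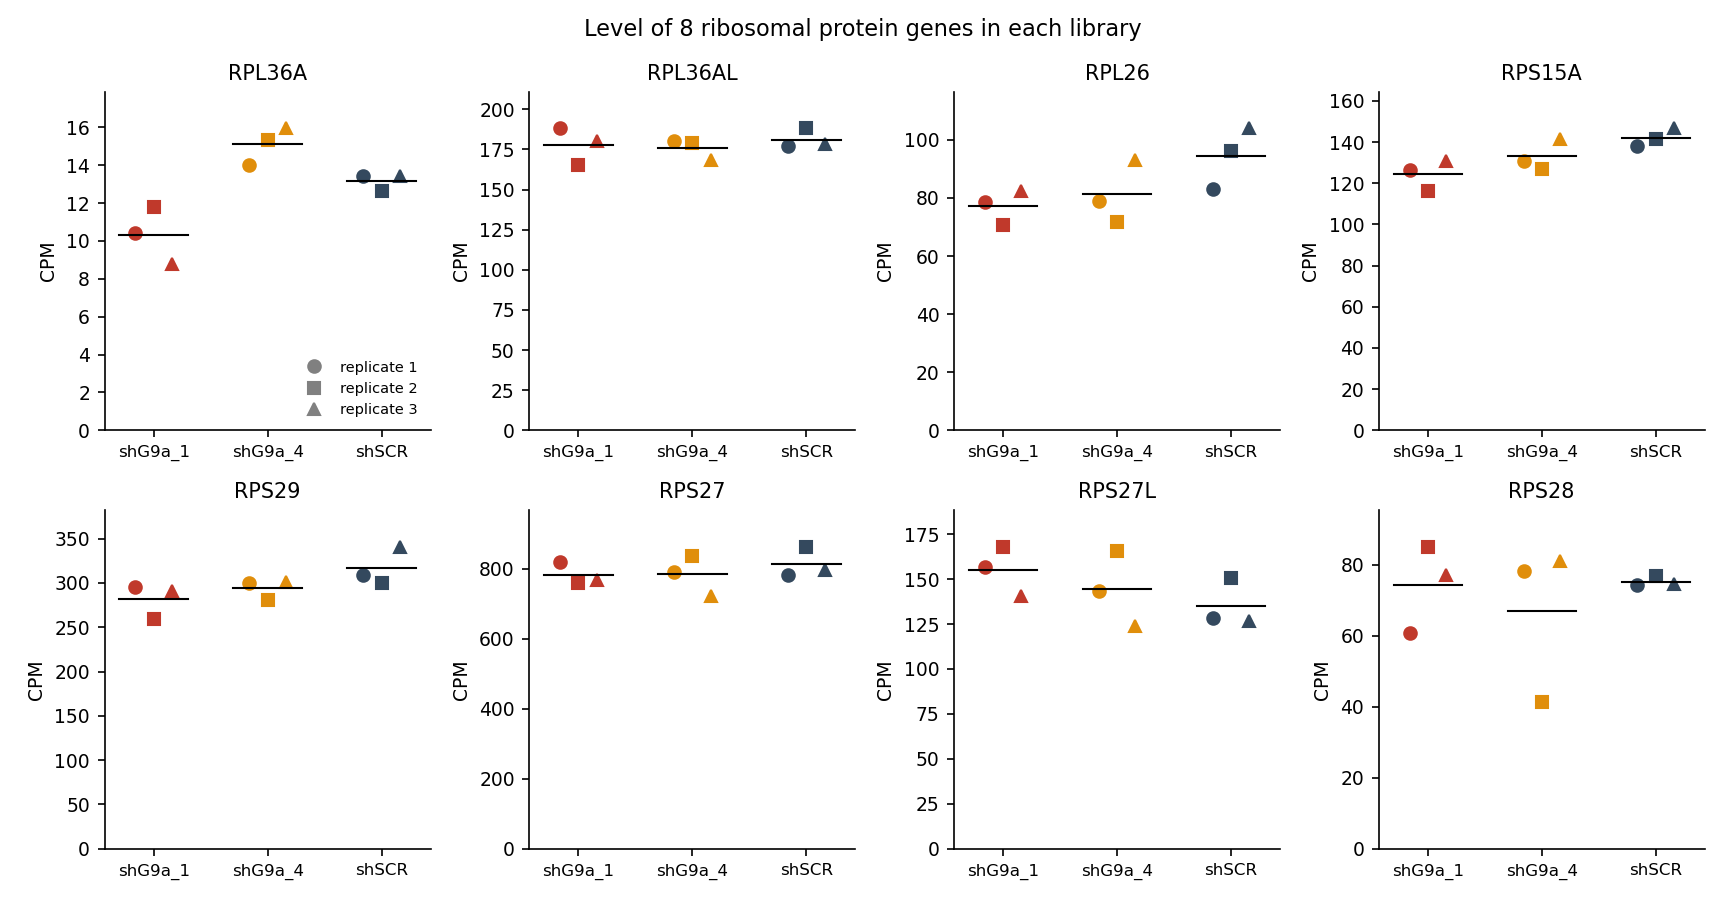
CPM of 8 ribosomal protein genes in each library (points, replicate by shape) with the group mean (line). RPL36A is below the control in all 3 shG9a_1 libraries and above it in all 3 shG9a_4 libraries, while its autosomal copy RPL36AL overlaps in all groups; RPS28 has 1 low library, shG9a_4 replicate 2.

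The stalk proteins RPLP0, RPLP1 and RPLP2, which recruit the GTPase factors of translation, were not called. RPLP0 was at 1559, 1554 and 1509.7 CPM in shG9a_1, 1667, 1524 and 1492 CPM in shG9a_4 and 1685, 1687 and 1543 CPM in shSCR, with log2 fold changes of −0.09 in shG9a_1 (SE 0.07) and −0.07 in shG9a_4 (SE 0.07). RPLP1 was at 255, 312 and 298 CPM in shG9a_1, 264, 181 and 340.3 CPM in shG9a_4 and 295, 255 and 273 CPM in shSCR, with the lowest value again in shG9a_4 replicate 2, and had 0.07 in shG9a_1 (SE 0.18) and −0.07 in shG9a_4 (SE 0.18). RPLP2 had 0.001 in shG9a_1 (SE 0.09) and −0.07 in shG9a_4 (SE 0.09). Of the 3 genes, 2 were above 0 in shG9a_1 (50.2% of all genes) and 0 in shG9a_4 (50.8% of all genes).

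Of 11 members reported to bind MDM2, 0 were called in shG9a_1 (0.038% of all genes) and 0 in shG9a_4 (0.0271%). In shG9a_1, 10 had a log2 fold change below 0, against 77.2% of all members and 49.8% of all genes. In shG9a_4, 9 did, against 82.3% of all members and 49.2% of all genes. The medians were −0.053 and −0.028. RPL5 was at 1146, 1023 and 1058 CPM in shG9a_1, 1152, 1183 and 1038 CPM in shG9a_4 and 1159, 1159 and 1102 CPM in shSCR, with log2 fold changes of −0.08 in shG9a_1 (SE 0.07) and −0.02 in shG9a_4 (SE 0.07). RPL11 was at 894, 855 and 872 CPM in shG9a_1, 891, 907 and 831 CPM in shG9a_4 and 867, 943 and 862 CPM in shSCR, with −0.03 in shG9a_1 (SE 0.07) and −0.02 in shG9a_4 (SE 0.07), and RPL23 had −0.06 in shG9a_1 (SE 0.07) and −0.03 in shG9a_4 (SE 0.07). RPL5, RPL11 and RPL23 overlapped the control in both hairpins. Of 11 genes listed for p53, its regulators and its targets, 0 were called in edgeR. Above 0 lay 8 in shG9a_1 (50.2% of all genes) and 10 in shG9a_4 (50.8% of all genes). TP53I3, a p53 target, was at 90.5, 92.5 and 82.3 CPM in shG9a_1, 67.9, 70.8 and 61.9 CPM in shG9a_4 and 49.1, 70.3 and 60.8 CPM in shSCR, with a log2 fold change of 0.56 in shG9a_1 (SE 0.11, adjusted p = 0.313 in edgeR, 0.0301 with the replicate block and 0.00739 in DESeq2). CDKN1A, the cell cycle inhibitor induced by p53, had 0.41 in shG9a_1 (SE 0.13) and 0.10 in shG9a_4 (SE 0.13), with an adjusted p of 0.592 in edgeR in shG9a_1.

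Of 20 members mutated in Diamond-Blackfan anaemia, 19 were tested and 0 called (0.038% of all genes in shG9a_1 and 0.0271% in shG9a_4). Below 0 lay 15 in each hairpin, with medians of −0.042 in shG9a_1 and −0.038 in shG9a_4. Of 26 members that carry small nucleolar RNAs in their introns, 0 were called, with 21 and 22 below 0 and medians of −0.057 and −0.044. Of all members 77.2% lay below 0 in shG9a_1 and 82.3% in shG9a_4, and of all genes 49.8% and 49.2%. Both lists lay near the shares of all members.

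Members with a close paralog give a comparison inside the family. RPS27L, a paralog of RPS27 that p53 induces, was at 157, 168 and 141 CPM in shG9a_1, 143, 165 and 124 CPM in shG9a_4 and 128, 151 and 127 CPM in shSCR. Its log2 fold changes were 0.20 in shG9a_1 (SE 0.11) and 0.09 in shG9a_4 (SE 0.11), with an adjusted p of 0.742 in edgeR in shG9a_1 and 0.154 with the replicate block. RPS27 was at 819.8, 759.5 and 768 CPM in shG9a_1, 792, 838 and 724 CPM in shG9a_4 and 783, 864 and 798 CPM in shSCR, with −0.06 in shG9a_1 (SE 0.07) and −0.05 in shG9a_4 (SE 0.07). Each RPS27L library with shG9a_1 was above the control library of its own replicate number, while the groups overlapped, and RPS27L was the highest small-subunit value in both comparisons. Of the start sites printed above, that of RPS27 has a pyrimidine run and that of RPS27L has none.

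RPL36AL, an intronless copy of RPL36A on another chromosome, was at 188, 165 and 181 CPM in shG9a_1, 180.4, 179 and 168 CPM in shG9a_4 and 177, 188 and 178 CPM in shSCR, with log2 fold changes of −0.03 in shG9a_1 (SE 0.07) and −0.04 in shG9a_4 (SE 0.07), and its groups overlapped. RPL39L, a paralog of RPL39 that is strong in testis, was at 1.06, 0.959 and 1.41 CPM in shG9a_1, 1.18, 0.95 and 0.806 CPM in shG9a_4 and 1.00, 0.883 and 1.17 CPM in shSCR. Its groups overlapped, at log2 fold changes of 0.17 in shG9a_1 (SE 0.22) and −0.04 in shG9a_4 (SE 0.22). Over the 3 paralogs tested 0 were called.

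Between the hairpins, 0 of 79 members were called in edgeR at an adjusted p of 0.05 in shG9a_4 against shG9a_1, where 0% of all genes were called. DESeq2 also called 0 members there (0.0112% of all genes), and edgeR with no filter called 1 of 81, RPL36A (0.296% of all genes). The median log2 fold change was 0.0081, against −0.00097 over all genes, with 47 members above 0 (49.8% of all genes) and 32 below (50.2% of all genes). At an unadjusted p under 0.05, 1 member was higher (1.27%, against 2.19% of all genes) and 0 were lower (1.9% of all genes). That member was RPL36A, also the only one whose groups did not overlap (5.06% of all genes were higher without overlap and 4.11% lower).

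The authors' deposited table of shG9a_1 against shSCR gives a value for 69 members, with a posterior probability of change (PPDE) and a fold change named RealFC. At a PPDE of at least 0.95, the authors' deposited table has 1 member lower, 1.45% of those listed, against 1.84% of 10748 genes, and 0 higher, against 1.15%. That member was RPS15A, with a RealFC of 0.869 and a PPDE of 0.998 in the authors' deposited table. For shG9a_4 the authors' deposited table has 0 members past that level in either direction, with 0.205% of 10745 genes lower and 0.409% higher. The median RealFC of members in the authors' deposited table was 0.961 in shG9a_1 and 0.961 in shG9a_4, against 0.995 and 0.994 for all genes, and 59 and 61 of 69 members were below 1.

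Replicates of a group varied by a few percent. The coefficient of variation within groups had a median of 5.36% over the 79 members and was under 10% in 68 of them. It was lowest for RPL37 at 1.66% and highest for RPS16 at 21.8%, followed by RPS28 (21.4%), RPL17 (19.1%), RPLP1 (19.0%) and RPL39L (18.4%).

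The deviation of members in a library differed with the GC content of their coding sequence, most in shG9a_4 replicate 2. In shG9a_4 replicate 2 the 26 members with the highest GC content (54.0% or more) had a median deviation of −0.19 on the log2 scale from their mean over 9 libraries, and the 27 with the lowest (47.5% or less) 0.066. The other protein-coding genes of the same GC ranges deviated by −0.15 and 0.11 in that library. In shG9a_1 replicate 2 the GC-rich members deviated by 0.086, and other genes of that range by 0.080. In the 3 shSCR libraries the GC-rich members lay at 0.074, 0.046 and −0.043, while other genes of that range lay at 0.012, −0.014 and 0.013. These GC ranges carry no test, and the part of composition in the fold changes was not tested.

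**Figure D5:**
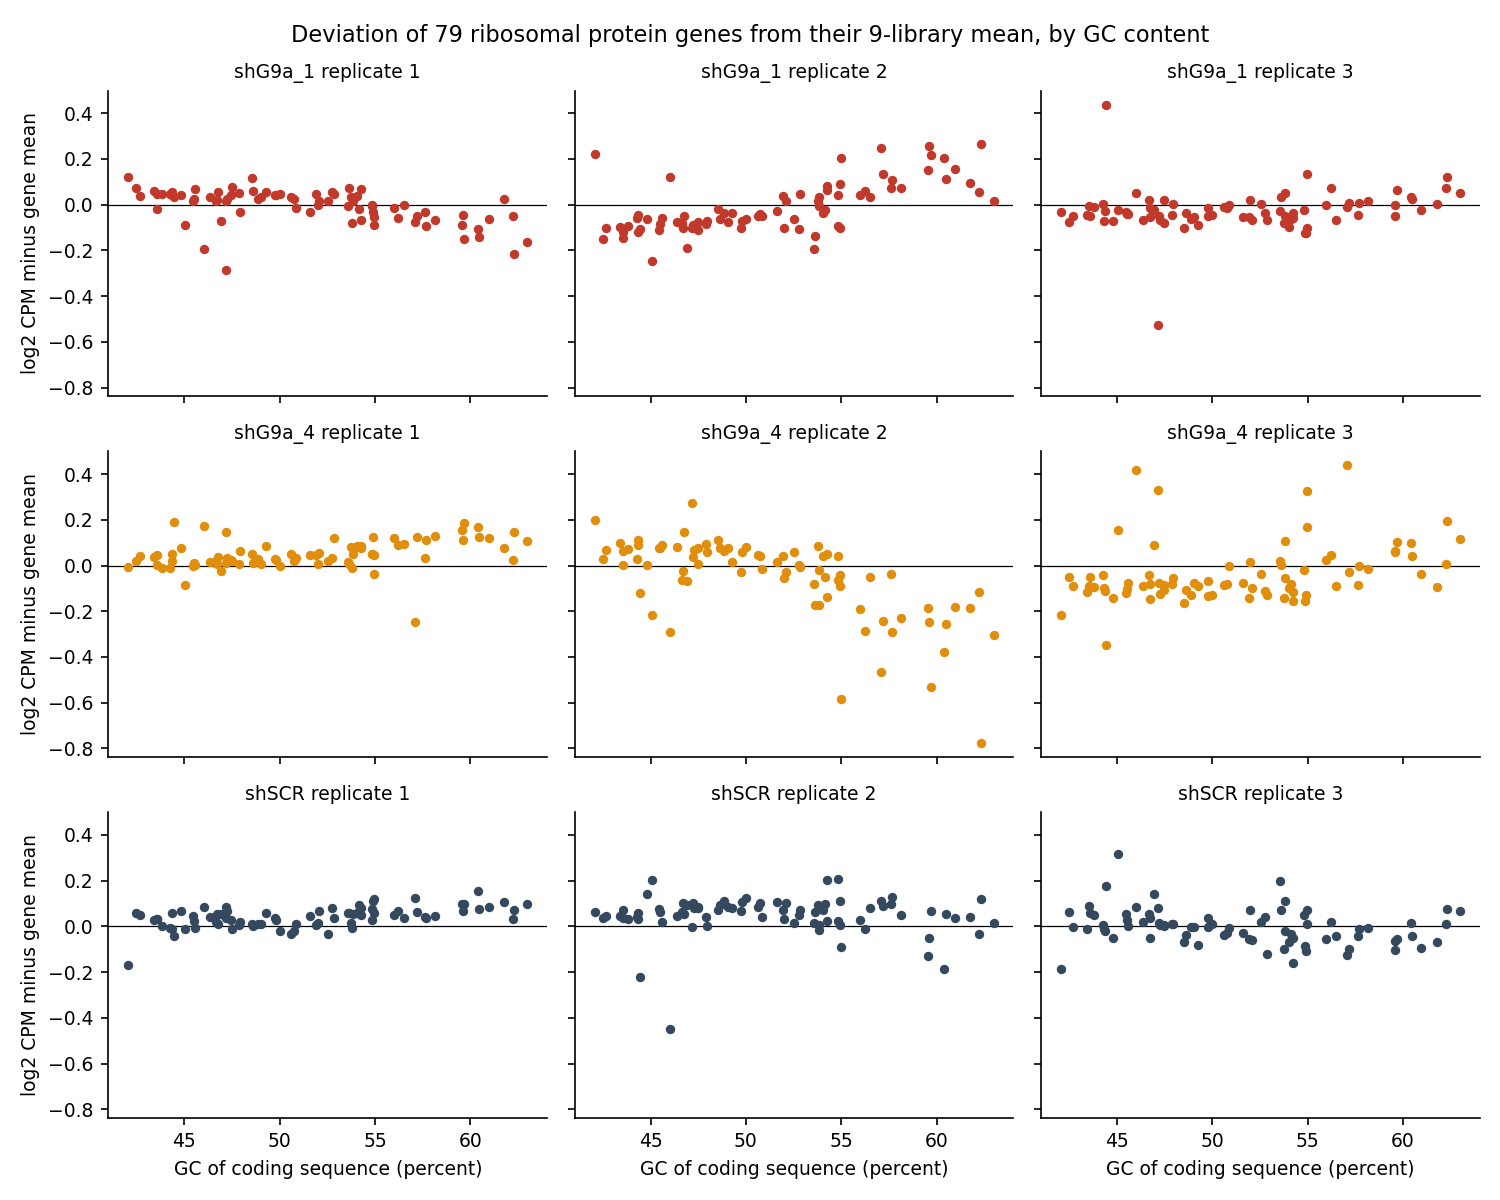
Deviation of the 79 tested ribosomal protein genes in each library (log2 CPM minus the mean of the gene over 9 libraries) by the GC content of the coding sequence in percent, 1 panel per library. In shG9a_4 replicate 2 most genes above about 54% GC lie below 0, and in shG9a_1 replicate 2 most of them lie above 0.

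Genes of the same pathway outside the rule were not called either. The 6 ribosome proteins or close paralogs that the rule does not reach were all below 0 in both comparisons, where 49.8% and 49.2% of all genes were. Their medians were −0.047 in shG9a_1 and −0.046 in shG9a_4, with 0 calls. RACK1, the scaffold of the small subunit, was at 1785, 1829 and 1758 CPM in shG9a_1, 1929.7, 1752 and 1729.9 CPM in shG9a_4 and 1853, 1953 and 1756 CPM in shSCR, with log2 fold changes of −0.05 in shG9a_1 (SE 0.07) and −0.04 in shG9a_4 (SE 0.07). FAU, the fusion that yields RPS30, had −0.03 in shG9a_1 (SE 0.10) and −0.09 in shG9a_4 (SE 0.10). RPL22L1, the paralog of RPL22, was at 324, 282 and 302 CPM in shG9a_1, 344, 335 and 315 CPM in shG9a_4 and 351, 328 and 329 CPM in shSCR, with −0.15 in shG9a_1 (SE 0.07, adjusted p = 0.669 in edgeR) and −0.02 in shG9a_4 (SE 0.07). RPL7L1, a nucleolar paralog of RPL7, had −0.02 in shG9a_1 (SE 0.07) and −0.01 in shG9a_4 (SE 0.07).

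Over all genes tested, 0.038% were called in shG9a_1 and 0.0271% in shG9a_4. Of 17 further TOP mRNAs, mostly elongation and initiation factors, 16 were tested and 0 called. Below 0 lay 13 in shG9a_1 (49.8% of all genes) and 11 in shG9a_4 (49.2%), with medians of −0.013 and −0.020. Of 12 genes of the S6 kinases and of translation control 0 were called, with medians of 0.0060 and 0.0080. Of 20 chaperones, importins and assembly factors for ribosomal proteins 0 were called, with medians of −0.038 and −0.030. Of 15 genes of ribosome quality control 0 were called, with medians of 0.0090 and 0.018.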

How the data were processed

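Per the labels' protocols, libraries were stranded total RNA after removal of ribosomal RNA, read as pairs of 75 bases. The authors deposited whole read counts per gene for each library, with columns for unstranded and both stranded readings per the file headers. They also deposited tables of their own comparisons, whose PPDE values are a score from 0 to 1 and whose fold changes are a linear ratio. GRCh37, hg19 and DESeq stand in the submitters' processing notes beside R 3.3.1, STAR 2.5.2a and edgeR 3.14.0, with no role or order. No coordinates of the files were used.

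The reverse-strand counts (94.7 to 95.1% of stranded reads) were analysed. The 4 summary classes were left out of library sizes: per library, pairs in no feature were 12.2 to 15.4%, ambiguous 2.49 to 2.68%, multimapped 4.58 to 5.49% and unmapped 2.75 to 4.34%. Symbols came from the gene names table (55277 IDs) and GENCODE 29 (421). edgeR 4.0.16 (R 4.3.3) fitted all 9 libraries with filterByExpr, TMM scaling (factors 0.981 to 1.019) and a mean per group. Quasi-likelihood tests were two-sided, with Benjamini-Hochberg adjustment over 18435 genes and 6 residual degrees of freedom. Intervals are 95%. CPM are TMM-scaled. The test was checked on simulated data.

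Same-numbered libraries of different groups deviated together (9 pairs, correlation 0.178 to 0.461). The 18 other pairs ran from −0.327 to 0.169, with a mean of −0.152. Deviations were centred within each group, so that negative mean follows from the positive same-numbered pairs and adds no evidence. From the same-numbered correlations, the numbers were taken to pair the libraries. A fit with the number as a block is given beside some results. SEs and intervals come from the fit without the block, where spread shared by same-numbered libraries counts as error. Per the series' design text these are biological replicates, and it does not say how they were separated, and p-values measure the spread between these samples.

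Coding lengths, GC content and 75-base windows are from GENCODE 29 and start-site windows from RefSeq. Alternatives were DESeq2 1.42.0, limma 3.58.1 (voom), a likelihood ratio test, other scalings, no filter, unstranded counts and leaving out each library. Named genes are members past an adjusted p of 0.05 in edgeR, with the block or in DESeq2, the 6 highest and 6 lowest by fold change in each hairpin (at least 10 CPM) and by level per kilobase, listed paralog pairs, genes close to the rule and 15 members with known roles. RPL14, RPL21, RPL36, RPL37, RPS23, TP53I3, CDKN1A, KRT14, KRT5, KRT6A, EPCAM, CDH1, TP63 and DCN were named after their values were seen. Members and lists were chosen with earlier results of these data known. Single values of a few genes are not reported here, while all members enter the counts, medians and shares.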

Additional observations from a re-analysis of the deposited data

Results flagged for a closer look

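RPL36A was singled out because its libraries lay on opposite sides of the control with the hairpins: all 3 shG9a_1 libraries lay below and all 3 shG9a_4 libraries above the shSCR libraries, at 10.4, 11.8 and 8.80 CPM in shG9a_1, 14.01, 15.3 and 15.95 CPM in shG9a_4 and 13.4, 12.6 and 13.4 CPM in shSCR. The log2 fold change in shG9a_4 against shG9a_1 was 0.54 (SE 0.12), with an adjusted p of 1.00 in edgeR, 0.262 with the replicate block, 0.0634 in DESeq2 and 0.0290 in edgeR with no filter; over the alternatives it ranged from 0.0290 to 1.00, and the log2 value from 0.42 to 0.67. All of its coding windows recur in other genes. The part of shared sequence in this difference was not tested. RPL36A was picked from the members by these same values, and how many of all genes show such a pattern was not counted.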

How the results depend on the processing

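Over 28 alternatives, of which protein-coding genes as denominator bore only on the share of reads, the counts of members called differed from 0 in 2 values. The count in shG9a_4 against shG9a_1 was 1 with no filter (RPL36A), where 0.296% of all genes were called. The count in shG9a_1 against shSCR was 1 with the replicate block and without shG9a_4 replicate 2 (RPL26, adjusted p = 0.0412 in edgeR), a combination chosen after seeing the data. The replicate block with all libraries changed no other call of members: it gave 0, 0 and 0 members and medians of −0.042 in shG9a_1 and −0.040 in shG9a_4, while over all genes it raised the calls to 143 in shG9a_1 and 14 in shG9a_4, against 7 and 5 without it. Leaving out 1 library at a time, without the block, the counts stayed at 0 in all 3 comparisons, the median ranged from −0.062 to −0.023 in shG9a_1 and from −0.065 to −0.00047 (without shG9a_4 replicate 3) in shG9a_4, and the difference in share from −0.304 to −0.167 percentage points in shG9a_1 and from −0.247 to −0.0969 in shG9a_4. The spread of the member median between replicates (SD 0.0456) is as large as the medians, so a move within it is no sign of stability. Of 2187 values of the genes named, 2153 kept their call and moved by no more than 1 SE, 32 moved further and 2 passed the threshold (those above). Under library-size scaling the median of all genes shifted to −0.020 in shG9a_1, and members lay at −0.063. Several members share sequence with other genes, read-through genes among them, and its part in their counts was not tested.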
